A study of Mus musculus with 2 samples.

Results

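Stromal cells of the newborn mouse kidney that carried Pdgfra transcripts but none of Foxd1 or Penk numbered 188 of 9735 quality-filtered cells, 109 of 5529 in the library of replicate 1 and 79 of 4206 in that of replicate 2. They were chosen from 2 single-cell RNA libraries by their own counts of unique molecular identifiers (UMIs, which count captured RNA molecules). A member held at least 1 UMI of Pdgfra and 3 of Col3a1, and 0 UMIs of Foxd1, Penk, the mural genes Myh11 and Kcnj8, the epithelial gene Epcam and the endothelial gene Pecam1. Each cell also needed at least 3000 UMIs, 500 genes and at most 20% mitochondrial UMIs. These cells are called Foxd1/Penk-negative stroma here, and "negative" means that no UMI was captured.

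Both libraries were made from whole kidneys at postnatal day 0 with the genotype label Rbpj c/+ ; Foxd1cre/+. The label gives 1 conditional (c) copy of Rbpj and a Cre recombinase at Foxd1, a gene of the renal stromal progenitors. Rbpj binds DNA and carries the signal of activated Notch receptors to its target genes. The libraries therefore form 1 group with n = 2, no other genotype was compared, and the label does not say in which cells recombination took place. Nothing in the labels says whether a library came from 1 animal or from a pool, so the spread between libraries may be partly technical.

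Renal stroma is the connective tissue between nephrons and collecting ducts. Foxd1-positive progenitors lie in the outer, nephrogenic zone and give rise to interstitial fibroblasts, pericytes, vascular smooth muscle, renin-producing cells and mesangium, and inner interstitial fibroblasts differ from outer ones in their Wnt-dependent genes. Pdgfra encodes a receptor for platelet-derived growth factors that marks fibroblasts, Col3a1 encodes a fibrillar collagen, and Penk encodes proenkephalin, a peptide precursor made by part of the medullary stroma.

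The values that chose the members are a description only. Pdgfra ran from 1 to 14 UMIs per cell in both libraries, with medians of 2 in replicate 1 and 3 in replicate 2, and 32.1% and 24.1% of members held the minimum of 1 UMI. Col3a1 ran from 3 to 421 UMIs in replicate 1 (median 14) and from 3 to 192 in replicate 2 (median 25). Just outside the Col3a1 threshold, with 1 or 2 UMIs, lay 9 cells in replicate 1 and 1 in replicate 2. Just outside the Pdgfra threshold lay 40 and 12 Col3a1 cells without any other gene of the rule. Beside the Foxd1 threshold, 76 of 165 Foxd1-positive cells in replicate 1 (46.1%) and 68 of 198 in replicate 2 (34.3%) held exactly 1 Foxd1 UMI, and beside the Penk threshold 27 of 167 and 13 of 117 Penk-positive cells held exactly 1 Penk UMI.

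Members made up 1.97% of the cells of replicate 1 (exact 95% interval 1.62 to 2.37%) and 1.88% of those of replicate 2 (1.49 to 2.34%). The mean was 1.92% ± 0.0659 (SD, n = 2), and the intervals cover counting error only. Among all Pdgfra cells that passed the mural, epithelial and endothelial limits, members were 109 of 441 (24.7%, 20.8 to 29.0%) in replicate 1 and 79 of 394 (20.1%, 16.2 to 24.4%) in replicate 2. The median depth of a member was 10050 UMIs in replicate 1 and 13241 in replicate 2, below the 12445 and 16690 UMIs of Foxd1-positive stroma and the 10836 and 14901 UMIs of Penk-positive stroma. No member barcode was shared between the libraries, and 6 barcodes were shared among all cells.

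The members' share of Pdgfra stroma was higher among shallow cells than in the middle and deep ranges. Between 3000 and 7500 UMIs they were 25 of 57 cells in replicate 1 (43.9%) and 13 of 29 in replicate 2 (44.8%). Between 15000 and 30000 UMIs they were 15 of 82 (18.3%, exact 95% interval 10.6 to 28.4%) and 27 of 196 (13.8%, 9.28 to 19.4%). Above 30000 UMIs they were 2 of 4 and 2 of 18. Over the same steps the Foxd1-positive share rose from 22.8% to 47.6% in replicate 1 and from 27.6% to 57.1% in replicate 2. If 3000 UMIs were drawn from each Foxd1-positive cell, 58.0% of draws in replicate 1 and 57.2% in replicate 2 would hold no Foxd1 UMI, and 27.3% and 21.2% of draws from Penk-positive cells would hold no Penk UMI. Cells that lacked a transcript and cells in which it was missed cannot be told apart one by one. The plot of shares by depth shows the 3 kinds of Pdgfra stroma together.

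**Figure D1:**
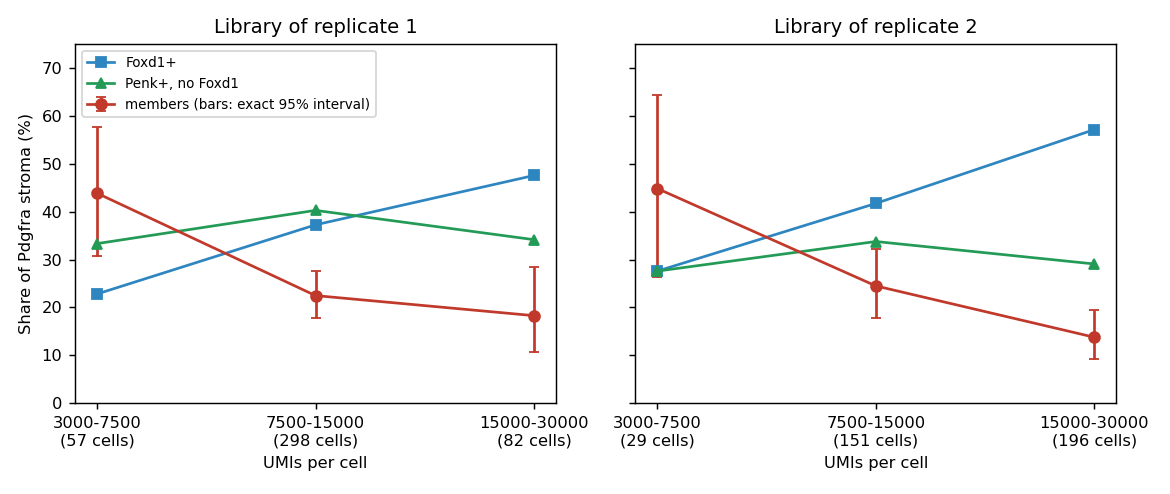
Share of Pdgfra stroma (%) held by Foxd1/Penk-negative cells (members), Foxd1-positive cells and Penk-positive cells without Foxd1, in 3 ranges of UMIs per cell, for each library; bars on the members are exact 95% binomial intervals and the number of cells in each range is given below it. The members' share fell from 43.9% to 18.3% in replicate 1 and from 44.8% to 13.8% in replicate 2.

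The label of stroma was checked against genes the rule did not use. Levels are UMIs of a gene per 1000000 UMIs (CPM) of the summed members of each library, replicate 1 first. Among the most abundant transcripts were Col1a2, a chain of type I collagen, at 1987 and 1907 CPM against 202 and 269 CPM in all other cells. Ptn, a heparin-binding growth factor, stood at 2606 and 2170 CPM against 361 and 425 CPM, and Gpc3, a cell-surface glypican, at 2656 and 3219 CPM against 579 and 765 CPM. Zeb2, a zinc-finger transcription factor of mesenchyme, stood at 1390 and 2063 CPM against 230 and 269 CPM. All of these were higher in both member sums than in the remaining cells of the same library.

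The genes with the highest ratio to all other cells, among those detected in at least 25% of members of both libraries, were Thbs2, Col14a1, Clca3a1, Epha3, Lox, Vegfd, Zim1, Igfbp3, Adamts2 and Pi15. Thbs2, a matricellular thrombospondin, reached 159 and 302 CPM in members and 9.70 and 14.4 CPM in the other cells, a ratio of 19.1. Col14a1, a fibril-associated collagen, reached 617 and 835 CPM against 38.3 and 47.6 CPM, a ratio of 16.9. These are descriptions of a set chosen by gene counts and carry no test.

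Summed markers of podocytes, tubules, endothelium and immune cells were lower in members than in all other cells. The rule had already left out cells with Epcam or Pecam1. The 10 endothelial markers summed to 87.9 and 92.7 CPM in members against 702 and 797 CPM in the other cells. Of these, Emcn, the sialomucin endomucin, held 48.5 and 43.6 CPM, and it was called higher than in Foxd1-positive stroma (25.2 and 19.6 CPM, edgeR adjusted p = 0.0181) and lower than in Penk-positive stroma and mural cells (edgeR adjusted p = 0.0162 and 0.0157). All 3 calls were lost in thinned cells. In the members of replicate 1 the endothelial markers Cdh5 and Cldn5 were at 1.64 and 3.29 CPM, in those of replicate 2 at 0.927 and 1.85 CPM, against 64.5 to 121 CPM over both genes and libraries in all other cells. The 10 immune markers summed to 22.2 and 10.2 CPM against 198 and 163 CPM in the other cells. The 10 podocyte markers summed to 200 and 145 CPM against 2363 and 1602 CPM, and the 10 loop and distal tubule markers to 49.3 and 78.8 CPM against 1521 and 2253 CPM. The 10 proximal tubule markers summed to 575 CPM in members of replicate 1 and 310 CPM in replicate 2, against 2448 and 2495 CPM in the other cells. Mural markers went the other way, although the rule had left out cells with Myh11 or Kcnj8. The 18 mural markers summed to 1570 and 3617 CPM in members against 694 and 1012 CPM in the other cells. The 10 nephron progenitor markers were also higher, with sums of 796 and 931 CPM in members against 484 and 467 CPM. Most of that sum was Itga8, at 616 and 875 CPM, which is also in the cortical stroma list, while Six2, a defining factor of nephron progenitors, was at 12.3 and 0.927 CPM against 40.3 and 30.7 CPM.

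A single barcode of replicate 1 accounted for most of the tubule signal. It held 34406 UMIs, 1 of Pdgfra and 38 of Col3a1, and was among the highest doublet scores. Of the members' UMIs in replicate 1 it carried 95 of 115 for Lrp2, which encodes the endocytic receptor megalin. It also held 54 UMIs of Slc34a1, the phosphate transporter of the proximal tubule. In all, 2 members of replicate 1 and 0 of replicate 2 were among the cells with the highest doublet scores, and 6 and 1 members held 3 or more UMIs of genes that define other lineages.

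To ask how these cells differed from the stroma nearest to them, their summed counts were set against 3 other sets drawn from the same libraries. Foxd1-positive stroma (165 and 198 cells) held Foxd1 and met the same limits except that on Penk, so its cells could also hold Penk. Penk-positive stroma (167 and 117 cells) held Penk and no Foxd1. The mural set (267 and 148 cells) met the Col3a1 limit and held Myh11 or Kcnj8 without Foxd1 or Penk. That set is mixed: 27.3% of its cells in replicate 1 and 19.6% in replicate 2 held only 1 UMI of the 2 mural genes, 56.6% and 62.8% held 3 or more, and 64.8% and 63.5% also held Pdgfra. All 8 sums entered 1 fit of edgeR's quasi-likelihood test with the library as a block, and 11829 genes were tested without the 8 genes of the rule. The 3 comparisons share the members' counts and are therefore not independent of each other. Each comparison set was chosen by Foxd1, Penk, Myh11 or Kcnj8, which members lack. Genes expressed along with these were therefore apt to be lower in members through the choice itself, and their calls are no independent check. Of 324 called differences of the genes named here and of the gene lists, 205 missed the threshold when the library block was left out.

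Against Foxd1-positive stroma, Foxd1/Penk-negative stroma had more Agtr1a, Prkg1 and Zeb2 and higher levels of 8 of 18 mural markers. It had less Ntn1, Igfbp6, Aldh1a2 and Gdnf, and lower levels of 6 of 12 cortical and nephrogenic zone markers. At an adjusted p under 0.05, 459 genes were higher (3.88% of those tested) and 290 were lower (2.45%). The gene with the largest increase was Agtr1a, the main angiotensin II receptor (chromosome 13, 30336441 to 30382867, GRCm38). It stood at 149 and 191 CPM in members and 29.4 and 23.7 CPM in Foxd1-positive stroma. The groups did not overlap, and the log2 difference was 2.74 ± 0.24 (SE, edgeR adjusted p = 0.000258).

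Prkg1, the cyclic GMP-dependent kinase of contractile cells, stood at 719 and 1222 CPM against 158 and 303 CPM, with a log2 difference of 2.12 ± 0.15 (edgeR adjusted p = 0.000189). Gucy1a1, a subunit of the guanylate cyclase that makes cyclic GMP, stood at 717 and 790 CPM against 342 and 389 CPM, with a log2 difference of 1.07 ± 0.08 (edgeR adjusted p = 0.000207). Neither pair of groups overlapped.

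Clca3a1, a chloride channel accessory protein, stood at 148 and 299 CPM in members and 32.7 and 63.8 CPM in Foxd1-positive stroma. Its log2 difference was 2.22 ± 0.15 (edgeR adjusted p = 0.000173). Nrp2, a co-receptor for semaphorins and vascular growth factors, stood at 66.6 and 144 CPM against 20.1 and 23.7 CPM, and its log2 difference was 2.27 ± 0.24 (edgeR adjusted p = 0.000483). In both genes the member values were the higher ones in each library. Bst2, an interferon-induced membrane protein, Zdhhc14, a palmitoyltransferase, and Srpx2, a secreted sushi-repeat protein, were also higher, with log2 differences of 2.35, 2.16 and 2.22. Without the library block the adjusted p of Bst2 missed the threshold.

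Fut9 and Lrp2 were also called higher, but they rested on the tubule-bearing barcode of replicate 1. The member levels of Fut9, a fucosyltransferase, were 78.9 and 5.56 CPM against 8.40 and 4.85 CPM, and those of Lrp2 were 94.5 and 14.8 CPM against 13.1 and 8.61 CPM, so replicate 1 alone was high. Neither call was kept when the highest doublet scores were left out.

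Among the 10 largest decreases was Ntn1, the guidance molecule netrin-1 of the outer stroma (chromosome 11, 68209364 to 68400823). It stood at 33.7 and 12.0 CPM in members and 183 and 183 CPM in Foxd1-positive stroma, a log2 difference of -2.96 ± 0.24 (edgeR adjusted p = 0.000219). Igfbp6, a binding protein for insulin-like growth factors, stood at 6.58 and 2.78 CPM against 91.0 and 67.6 CPM, a log2 difference of -4.06 ± 0.34 (edgeR adjusted p = 0.000219). Cadm1, a cell adhesion molecule, stood at 44.4 and 14.8 CPM against 147 and 171 CPM, and Col4a3, a basement membrane collagen chain, at 23.0 and 12.0 CPM against 84.9 and 78.1 CPM. All 4 genes were lower in both member sums than in either Foxd1-positive sum.

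Other decreases differed between libraries or rested on few counts. Clec3b, which encodes tetranectin, stood at 7.40 and 0.927 CPM in members against 106 CPM in Foxd1-positive stroma of replicate 1 and 4.31 CPM in that of replicate 2. Bmper, a secreted modulator of bone morphogenetic proteins, was at 2 and 3 UMIs in members against 29 and 300 UMIs, a log2 difference of -4.28 ± 0.88 (edgeR adjusted p = 0.0191), and its call was lost in cells of 5000 to 20000 UMIs. Nlgn1, Fbln2, Cacna2d3 and Tpd52l1 had log2 differences of -2.63, -2.41, -2.27 and -2.21. With DESeq2 the calls of Nlgn1 and Cacna2d3 were lost, and against the stricter Foxd1-positive set (at least 2 Foxd1 UMIs) those of Nlgn1 and Fbln2.

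Of 12 markers of cortical and nephrogenic zone stroma, all tested, 6 fell (Ntn1, Dlk1, Rspo3, Aldh1a2, Gdnf and Fibin) and 3 rose (Clca3a1, Itga8 and Gucy1a1). The list's median log2 difference was -1.19, against 0.0056 over all tested genes. Aldh1a2, which makes retinoic acid, stood at 108 and 72.3 CPM against 337 and 293 CPM, a log2 difference of -1.80 ± 0.17 (edgeR adjusted p = 0.000274). Gdnf, the growth factor that drives ureteric branching, stood at 67.4 and 46.3 CPM against 201 and 177 CPM, a log2 difference of -1.72 ± 0.18 (edgeR adjusted p = 0.000503). Itga8, an integrin chain, moved the other way, from 271 and 253 CPM in Foxd1-positive stroma to 616 and 875 CPM in members, a log2 difference of 1.51 ± 0.13 (edgeR adjusted p = 0.000253). The markers of the list moved in both directions. The call of Dlk1 was lost with DESeq2 and that of Rspo3 in cells thinned to 3000 UMIs.

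Of 20 adventitial and capsule fibroblast markers, 16 were tested, 6 fell (Igfbp6, Clec3b, Cd34, Mfap5, Ackr3 and Mgp) and 0 rose. The median log2 difference was -0.92. The call of Cd34, a surface sialomucin, was lost in thinned cells and that of Mfap5, a microfibril protein, against the stricter Foxd1-positive set. Ackr3, a scavenging chemokine receptor, was not called in thinned cells or with DESeq2.

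Of 18 mural markers, 8 rose in members (Des, Abcc9, Tagln, Ndufa4l2, Mcam, Notch3, Rgs5 and Pdgfrb), 0 fell, and the median log2 difference was 1.06. Abcc9, a subunit of vascular potassium channels, stood at 87.9 and 72.3 CPM against 28.5 and 17.8 CPM, a log2 difference of 1.87 ± 0.20 (edgeR adjusted p = 0.000576). Pdgfrb, the receptor that recruits pericytes, stood at 178 and 200 CPM against 105 and 90.7 CPM, a log2 difference of 0.98 ± 0.14 (edgeR adjusted p = 0.00271). Rgs5, a regulator of G-protein signalling in pericytes, stood at 111 and 243 CPM against 31.7 and 167 CPM, so the groups overlapped across libraries, and its log2 difference was 1.01 ± 0.26 (edgeR adjusted p = 0.0458). Cells with a Myh11 or Kcnj8 UMI had been left out of both sets. That limit did not act alike, since members were shallower, with medians of 10050 and 13241 UMIs against 12445 and 16690. Of the mural set, 27.3% and 19.6% of cells held only 1 UMI of the 2 genes. Mural cells in which both genes were missed could therefore be among the members, and their part in these differences was not tested. Tagln, Mcam and Notch3 were not called with DESeq2, and Notch3 and Mcam also not in thinned cells.

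Of 92 cell cycle genes, 18 fell and 0 rose against Foxd1-positive stroma, with a median log2 difference of -0.64. Top2a, the topoisomerase of dividing cells, stood at 240 and 169 CPM in members and 438 and 378 CPM in Foxd1-positive stroma, a log2 difference of -1.004 ± 0.22 (edgeR adjusted p = 0.0263). Hmgb2, a chromatin protein of proliferating cells, stood at 614 and 542 CPM against 1111 and 806 CPM, a log2 difference of -0.68 ± 0.10 (edgeR adjusted p = 0.00363). The groups did not overlap in either gene. The count was 6 in cells thinned to 3000 UMIs, 7 with DESeq2 and 0 without the library block, while it was 10 in cells of 5000 to 20000 UMIs.

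Matrix genes moved in both directions. Of 18 fibrillar and associated collagen genes, 5 rose (Col14a1, Col6a2, Col6a1, Col5a1 and Col6a3) and 2 fell (Col8a2 and Col8a1), and of 39 other matrix genes, 38 of them tested, 10 rose and 5 fell. Col14a1 stood at 617 and 835 CPM against 296 and 193 CPM, a log2 difference of 1.62 ± 0.22 (edgeR adjusted p = 0.00219). Tnc, the matrix glycoprotein tenascin C, stood at 174 and 265 CPM against 57.8 and 100 CPM, a log2 difference of 1.51 ± 0.15 (edgeR adjusted p = 0.00045). Thbs2 stood at 159 and 302 CPM against 66.2 and 54.1 CPM, a log2 difference of 1.95 ± 0.24 (edgeR adjusted p = 0.0014).

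Of 42 stromal transcription factors, 39 were tested, 7 rose and 6 fell. Zeb2 stood at 1390 and 2063 CPM in members against 526 and 602 CPM, a log2 difference of 1.62 ± 0.09 (edgeR adjusted p = 0.000103). Tcf21, a basic helix-loop-helix factor of renal mesenchyme, stood at 366 and 473 CPM against 182 and 207 CPM, a log2 difference of 1.13 ± 0.10 (edgeR adjusted p = 0.000258).

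Of 10 hedgehog response genes, 3 rose, among them Hhip and Ptch1, and 1 fell (Boc). Hhip, which binds hedgehog ligands, stood at 60.8 and 75.1 CPM against 21.5 and 17.2 CPM, a log2 difference of 1.86 ± 0.32 (edgeR adjusted p = 0.00856). Few members carried it: 17.4% in replicate 1 and 34.2% in replicate 2 held a Hhip UMI. The 3 cells with the most held 43.2% and 30.9% of the members' Hhip UMIs. Ptch1, the hedgehog receptor, stood at 149 and 309 CPM against 95.6 and 129 CPM, a log2 difference of 1.002 ± 0.14 (edgeR adjusted p = 0.00271). Gli1, a transcription factor and target of the pathway, stood at 21.4 and 29.7 CPM against 21.9 and 16.7 CPM and did not pass the test (edgeR adjusted p = 0.364).

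Of 12 markers of ureteric and pelvic mesenchyme, 11 were tested and 5 rose (Hhip, Tshz3, Ptch1, Tbx2 and Tshz2), with a median log2 difference of 0.82, and 2 of these genes stand in the hedgehog list as well. Secreted signals also split. Of 29 niche signals, 22 were tested, and Vegfd, Angpt2 and Angpt1 rose while Ntn1, Gdnf, Sema3d and Mdk fell. Vegfd, a lymphatic and vascular growth factor, stood at 84.7 and 140 CPM against 25.7 and 40.4 CPM, a log2 difference of 1.77 ± 0.19 (edgeR adjusted p = 0.000573). Angpt2, a vessel-destabilising ligand, stood at 44.4 and 57.5 CPM against 16.3 and 16.1 CPM, a log2 difference of 1.66 ± 0.22 (edgeR adjusted p = 0.00212). Only 21 of 109 members of replicate 1 and 28 of 79 of replicate 2 held an Angpt2 UMI. Of 14 genes of insulin-like growth factor signalling, Igfbp3, Igfbp2, Igfbp7 and Igf1r rose and Igfbp6 and Igfbp5 fell. Igfbp5 stood at 385 and 207 CPM against 1135 and 1332 CPM, a log2 difference of -2.11 ± 0.23 (edgeR adjusted p = 0.000681). Igf1r, which missed the threshold in 9 of the 12 alternative analyses, was the least stable of these calls.

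Members and Foxd1-positive stroma also differed in podocyte markers, of which 4 of 10 were lower in members, among them Ptpro and Magi2. Their summed level was 200 and 145 CPM in members and 334 and 441 CPM in Foxd1-positive stroma, and without the highest doublet scores 1 of 7 tested was lower and 1 higher. Foxd1 is itself a podocyte gene, and the part of such cells in the other differences was not tested. Of 16 stress genes of tissue dissociation, 14 were tested and 3 fell (Ier2, Egr1 and Hsp90aa1).

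Against Penk-positive stroma, members had no UMI of Nts, less Lrriq1, Col15a1 and Nav3, lower levels of 7 of 9 tested medullary and papillary markers, and more Megf11, Maf, Epas1, Agtr1a and Igfbp3. At the same threshold, 222 genes were higher (1.88% of 11829) and 150 were lower (1.27%). The largest increase was that of Megf11, a transmembrane protein with epidermal growth factor repeats (chromosome 9, 64385626 to 64709205). It stood at 75.6 and 80.6 CPM in members and 4.18 and 4.93 CPM in Penk-positive stroma, a log2 difference of 4.09 ± 0.34 (edgeR adjusted p = 0.000232). Both member values lay above both Penk-positive values.

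Maf, a leucine-zipper transcription factor, stood at 174 and 195 CPM against 40.3 and 19.7 CPM, a log2 difference of 2.62 ± 0.22 (edgeR adjusted p = 0.000232). Epas1, the hypoxia-inducible factor of perivascular stroma, stood at 80.5 and 102 CPM against 16.7 and 18.6 CPM, a log2 difference of 2.36 ± 0.19 (edgeR adjusted p = 0.000232). Igfbp3 stood at 413 and 954 CPM against 128 and 157 CPM, a log2 difference of 2.18 ± 0.22 (edgeR adjusted p = 0.000629). None of these groups overlapped. Agtr1a differed by 2.26 ± 0.24 on the log2 scale (edgeR adjusted p = 0.000962), with Penk-positive levels of 22.5 and 49.3 CPM. Mical2, Serpinb6b, Ntrk3, Angpt2 and Hhip had log2 differences of 2.40, 2.16, 2.15, 2.08 and 1.98. The calls of Ntrk3, a neurotrophin receptor, and Serpinb6b, a serine protease inhibitor, were lost in thinned cells.

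Nts, which encodes the peptide neurotensin (chromosome 10, 102481756 to 102490486), was at 0 UMIs in the members of both libraries and at 133 and 434 UMIs in Penk-positive stroma. Against a floor of 3 UMIs per library, it was at least 28.2-fold lower in replicate 1 and at least 85.5-fold lower in replicate 2 (edgeR adjusted p = 0.000232). Lrriq1, a leucine-rich repeat gene (chromosome 10, 103046031 to 103236322), stood at 51.0 and 84.3 CPM against 877 and 1210 CPM, a log2 difference of -3.95 ± 0.13 (edgeR adjusted p = 2.39e-07). Nav3, a neuron navigator protein, stood at 43.6 and 51.9 CPM against 366 and 880 CPM, a log2 difference of -3.61 ± 0.26 (edgeR adjusted p = 0.000112). These transcripts were low in both member sums and high in both Penk-positive sums.

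Col15a1, a basement membrane collagen, stood at 13.2 and 13.0 CPM against 132 and 333 CPM, a log2 difference of -4.06 ± 0.27 (edgeR adjusted p = 8.11e-05). Galntl6, Dclk1, Apcdd1, Dach2, Mctp2 and Galnt3 had log2 differences of -4.53, -3.64, -3.57, -3.51, -3.33 and -3.07. The adjusted p of Galntl6 missed the threshold with DESeq2, and that of Apcdd1, an inhibitor of Wnt signalling, without the library block.

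Of 12 medullary and papillary stroma markers, 9 were tested and 7 fell against Penk-positive stroma (Lef1, Alx1, Tcf7, Axin2, Cdkn1c, Nkd1 and Wnt5a), with a median log2 difference of -1.77 against -0.0069 over all tested genes. Lef1, a transcription factor of canonical Wnt signalling, stood at 9.86 and 8.34 CPM against 38.2 and 115 CPM, a log2 difference of -2.95 ± 0.43 (edgeR adjusted p = 0.00428). Alx1, a homeodomain factor, stood at 13.2 and 41.7 CPM against 127 and 256 CPM, a log2 difference of -2.81 ± 0.25 (edgeR adjusted p = 0.000232). Wnt5a, a non-canonical Wnt ligand, stood at 34.5 and 38.0 CPM against 93.1 and 83.3 CPM, a log2 difference of -1.28 ± 0.17 (edgeR adjusted p = 0.00262). None of these groups overlapped, and the call of Wnt5a was lost in thinned cells. Tcf7, Axin2 and Cdkn1c were not called with DESeq2. Against Foxd1-positive stroma 0 of the same 9 genes were called by edgeR, 1 at an unadjusted p under 0.05, and 0 by DESeq2.

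Of 31 genes of Wnt signalling, 23 were tested, 8 fell against Penk-positive stroma (Lef1, Tcf7, Axin2, Wnt5b, Wnt11, Nkd1, Wnt5a and Sfrp1) and 0 rose, with a median log2 difference of -0.36. Axin2, a feedback target of canonical Wnt signalling, stood at 7.40 and 6.49 CPM against 23.0 and 24.7 CPM, and its call was lost with DESeq2. Sfrp1, a secreted Wnt antagonist, stood at 298 and 531 CPM against 439 and 843 CPM, so the member value of replicate 2 lay above the Penk-positive value of replicate 1, and within each library it was lower.

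Of the 18 mural markers 4 rose against Penk-positive stroma (Rgs5, Abcc9, Ndufa4l2 and Pdgfrb) and 0 fell, with a median log2 difference of 0.96. Of the 16 adventitial and capsule markers tested, 4 fell (Col15a1, Clec3b, Igfbp6 and Mfap5) and 1 rose (Mgp), with a median of -1.04. Of 92 cell cycle genes 1 fell (Prim1), which was not called with DESeq2 or in thinned cells, and 0 rose. Of the 38 other matrix genes 8 rose and 4 fell. Mgp, the matrix Gla protein, stood at 950 and 695 CPM against 431 and 198 CPM, a log2 difference of 1.44 ± 0.19 (edgeR adjusted p = 0.00262). In replicate 2, 1 cell held 28.4% of the members' Mgp UMIs, while the top cell of replicate 1 held 6.83%. Of the 39 transcription factors 4 rose and 8 fell, among them Tshz2, a zinc-finger factor, which rose by 0.92 ± 0.11 from 755 and 767 CPM to 1307 and 1557 CPM (edgeR adjusted p = 0.00162).

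The plot of gene levels shows these genes in all 4 sets.

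**Figure D2:**
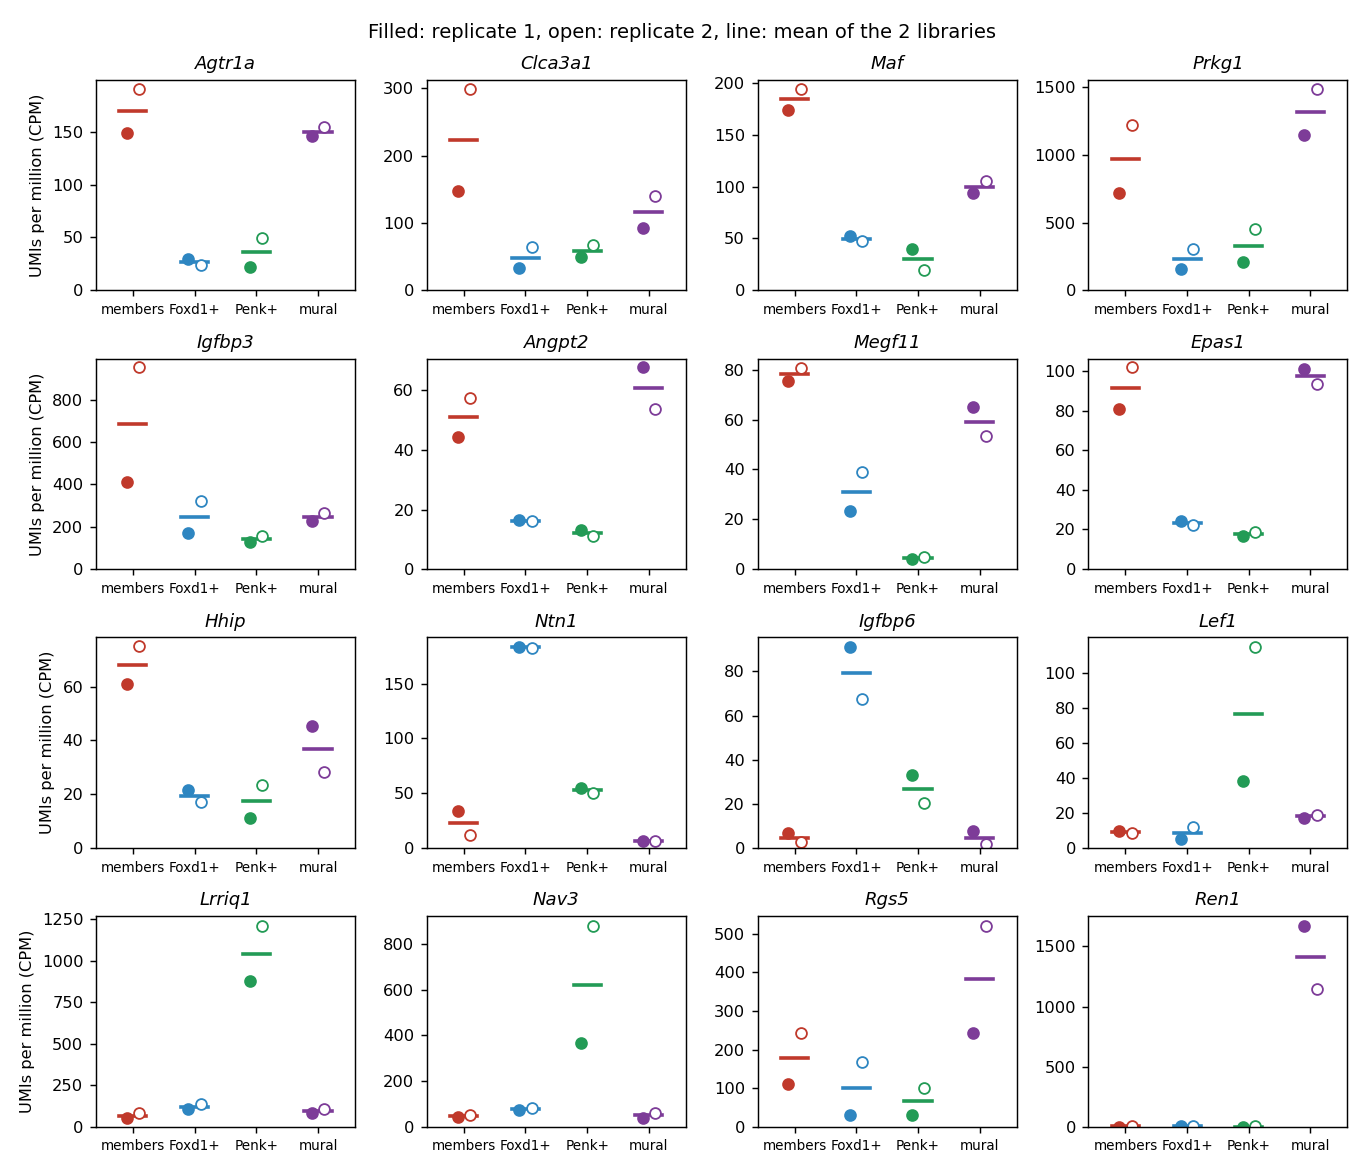
Levels (CPM) of 16 genes in the summed cells of Foxd1/Penk-negative stroma (members), Foxd1-positive stroma, Penk-positive stroma and mural cells; filled points are replicate 1, open points replicate 2 and lines the mean of both libraries, and every axis starts at 0. Agtr1a was at 149 and 191 CPM in members and 146 and 154 CPM in mural cells, while Ren1 was at 1.64 and 5.56 CPM in members and 1667 and 1149 CPM in mural cells.

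Against mural cells, members had almost no Ren1, Cnn1 or Actg2, lower levels of 16 of 18 mural markers and higher levels of 14 of 38 tested matrix genes other than collagens. At the same threshold, 282 genes were higher (2.38% of 11829) and 309 were lower (2.61%). Ren1, which encodes renin (chromosome 1, 133350510 to 133360325), was at 2 and 6 UMIs in members and 5724 and 3095 UMIs in mural cells, a log2 difference of -8.63 ± 0.39 (edgeR adjusted p = 8.81e-06). Its member levels of 1.64 and 5.56 CPM were below the 9.10 and 45.2 CPM of barcodes with 10 to 100 UMIs, which hold free RNA. Of the 18 mural markers, 16 fell, 0 rose, and the median log2 difference was -1.92 against 0.0024 over all tested genes. Because Myh11 and Kcnj8 chose both sets, a fall of markers expressed with them was favoured by the selection.

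Tnnt2, cardiac-type troponin T, Rbm24, an RNA-binding protein of muscle, and Stac, an adaptor of calcium channels, were at 0 UMIs in the members of both libraries. Against the floor of 3 UMIs per library, Tnnt2 was at least 110-fold lower in replicate 1 and 8.95-fold lower in replicate 2. On the same floor, Rbm24 was at least 48.5-fold and 11.2-fold lower and Stac at least 24.2-fold and 18.4-fold lower. Cnn1, a smooth-muscle calponin, was at 1 and 0 UMIs in members against 534 and 294 in mural cells, Fbxl22 at 1 and 1 against 510 and 117, and Mustn1 at 1 and 1 against 91 and 201. Actg2, the smooth-muscle gamma actin, was at 0 and 8 UMIs against 1079 and 470, and Cav1, the caveolar coat protein, at 6 and 1 against 319 and 167. Dpp6, a potassium channel partner, was at 4 and 1 UMIs against 301 and 97, and its call was lost when the highest doublet scores were left out.

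The smooth-muscle genes shared by many stromal cells fell less. Acta2, smooth-muscle alpha actin, stood at 425 and 1409 CPM in members and 2257 and 2467 CPM in mural cells, a log2 difference of -1.67 ± 0.30 (edgeR adjusted p = 0.0115). Tagln, transgelin, stood at 98.6 and 438 CPM against 993 and 1182 CPM, a log2 difference of -2.38 ± 0.35 (edgeR adjusted p = 0.00434). The groups did not overlap in either gene, and both calls were lost without the library block. In members both genes were over 3-fold apart between the libraries, and in Foxd1-positive stroma they differed the same way, with Acta2 at 280 and 834 CPM and Tagln at 37.8 and 142 CPM.

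The genes called higher in members than in mural cells included matrix and stromal genes. Etl4, which encodes a large cytoskeletal protein, stood at 1248 and 1853 CPM against 390 and 731 CPM, a log2 difference of 1.49 ± 0.15 (edgeR adjusted p = 0.000422). Ak5, an adenylate kinase, stood at 110 and 217 CPM against 33.8 and 69.1 CPM, and Cntn4, a neural adhesion molecule, at 197 and 138 CPM against 51.3 and 58.3 CPM. Their log2 differences were 1.67 ± 0.18 and 1.61 ± 0.22 (edgeR adjusted p = 0.000551 and 0.00269). Mfap5, Srpx2 and Dpep1, a membrane dipeptidase, had log2 differences of 1.52, 1.52 and 1.502. In thinned cells Mfap5 and Srpx2 were not called. Fut9, Lrp2 and Esrrg were also among the 10 largest increases, and these 3 calls were lost when the highest doublet scores were left out.

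Of the 38 other matrix genes tested, 14 rose and 1 fell against mural cells, with a median log2 difference of 0.55, and of 18 collagens 6 rose and 1 fell. Fbln5, an elastic-fibre protein, stood at 279 and 533 CPM against 132 and 185 CPM, a log2 difference of 1.32 ± 0.16 (edgeR adjusted p = 0.00138). Dcn, the proteoglycan decorin, stood at 575 and 489 CPM against 255 and 260 CPM, a log2 difference of 1.03 ± 0.21 (edgeR adjusted p = 0.0187). Sparcl1, a matricellular protein, was the 1 gene that fell, from 434 and 552 CPM to 136 and 119 CPM. Of 39 transcription factors 12 rose and 4 fell, and Tcf21 differed by 0.88 ± 0.10 (edgeR adjusted p = 0.000679).

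Of the genes called higher in members than in Foxd1-positive or Penk-positive stroma, some were not called against mural cells and others were. Clca3a1, at 93.2 and 140 CPM in mural cells, was higher in members by 0.89 ± 0.14 (edgeR adjusted p = 0.00579), a call lost in thinned cells and in cells of 5000 to 20000 UMIs. Igfbp3, at 228 and 265 CPM in mural cells, was higher by 1.36 ± 0.21 (edgeR adjusted p = 0.00461). The genes without a call were chosen after they were seen. Agtr1a was at 146 and 154 CPM in mural cells and differed by 0.16 ± 0.20 on the log2 scale (edgeR adjusted p = 0.74). Epas1 was at 101 and 93.6 CPM and differed by -0.11 ± 0.14 (edgeR adjusted p = 0.766), and Megf11 was at 64.9 and 53.5 CPM and differed by 0.38 ± 0.21 (edgeR adjusted p = 0.381). A p above the threshold does not show equal levels, and the mural set holds many Pdgfra cells. Against the stricter mural set, with at least 3 UMIs of Myh11 and Kcnj8, 495 genes were higher and 524 lower, and Prkg1, at -0.50 ± 0.14 in the main comparison (edgeR adjusted p = 0.0866), was called lower at -0.68 (edgeR adjusted p = 0.015).

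Rbpj (chromosome 5, 53466152 to 53657362), the gene of the conditional allele, stood at 56.7 and 56.5 CPM in members. It was at 70.0 and 58.1 CPM in Foxd1-positive stroma, 71.1 and 62.5 CPM in Penk-positive stroma and 84.2 and 68.0 CPM in mural cells. None of the 3 differences passed the test, the largest being -0.43 ± 0.14 against mural cells (edgeR adjusted p = 0.118). A 3' count does not separate the conditional copy from the other, so these levels do not check recombination. Of 40 Notch pathway genes, 31 were tested: 4 were higher and 1 lower against Foxd1-positive stroma, 1 and 0 against Penk-positive stroma, and 1 and 6 against mural cells. Notch3, a receptor of mural cells, stood at 59.2 and 53.8 CPM in members, 32.2 and 24.5 CPM in Foxd1-positive stroma and 95.5 and 130 CPM in mural cells, and was called in both comparisons (log2 differences 1.06 ± 0.24 and -0.99 ± 0.21, edgeR adjusted p = 0.0296 and 0.0216). The first call was lost with DESeq2 and both in thinned cells. Heyl, a Notch target, stood at 29.6 and 16.7 CPM in members and 95.8 and 102 CPM in mural cells, a log2 difference of -2.09 ± 0.21 (edgeR adjusted p = 0.000422). Against the 9.42 and 7.67 CPM of Penk-positive stroma Heyl was higher in members, by 1.45 ± 0.32 (edgeR adjusted p = 0.0404), a call lost in 6 of the 12 alternatives, DESeq2 among them.

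**Figure D3:**
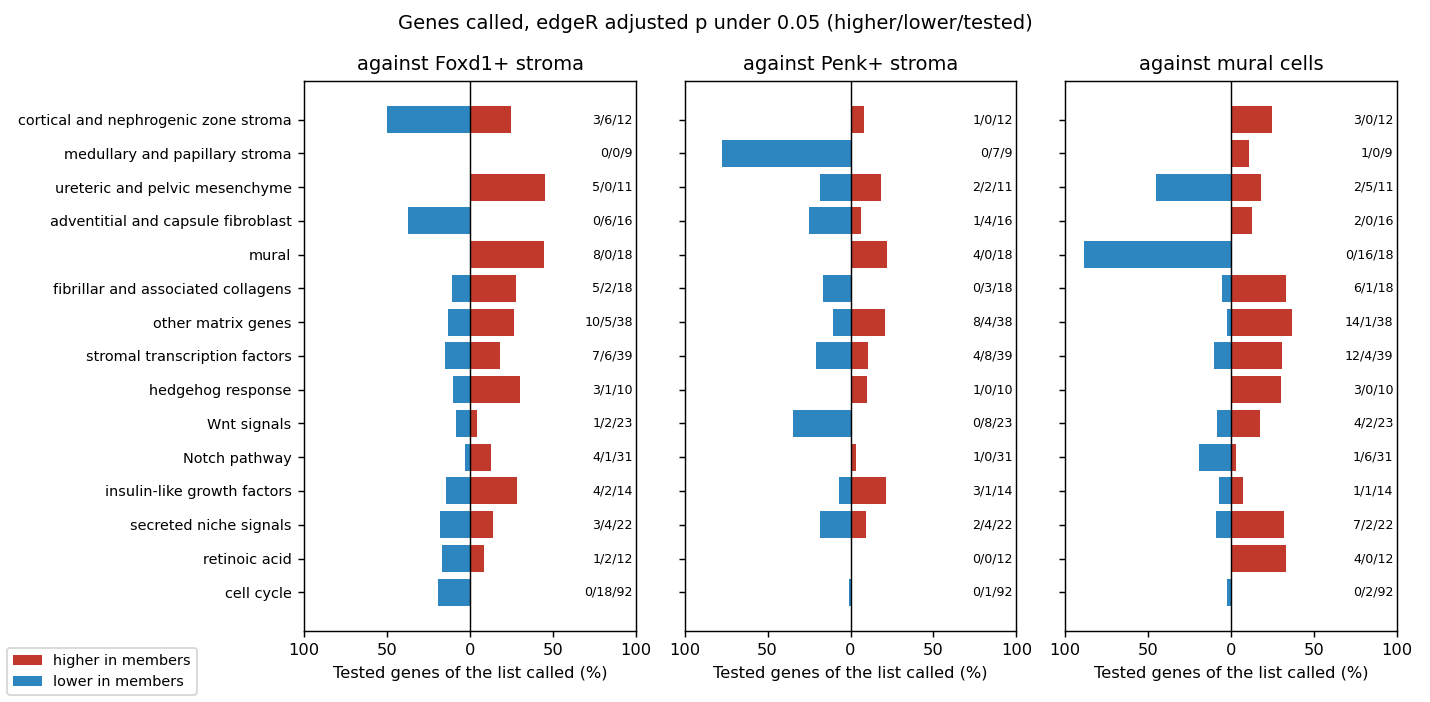
Share of the tested genes of each list that were called higher (red, to the right) or lower (blue, to the left) in Foxd1/Penk-negative stroma than in each comparison set, at an edgeR adjusted p under 0.05; numbers give genes higher, lower and tested. Of the medullary list 7 of 9 genes fell against Penk-positive stroma and 0 of 9 against Foxd1-positive stroma, and 16 of 18 mural markers fell against mural cells while 8 of 18 rose against Foxd1-positive stroma.

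The members were not uniform. Clustering on their variable genes, with rule genes, listed cell cycle and stress genes, and mitochondrial and ribosomal genes left out, gave 3 subclusters that held cells of both libraries. They are described by number, since no fixed list of stromal or mural markers described any of them fully, and the genes that separate them carry no test. Markers were counted as raised at 2-fold over the other members (5 CPM added) and in at least 10% of cells. In subclusters 1, 2 and 3, raised cortical markers numbered 4, 3 and 0 and mural markers 0, 4 and 2. Ureteric and pelvic markers numbered 0, 5 and 0, and adventitial and capsule markers 0, 4 and 0. Subcluster 1 held 36 members of replicate 1 (33.0%) and 20 of replicate 2 (25.3%), subcluster 2 held 43 and 43 (39.4% and 54.4%), and subcluster 3 held 30 and 16 (27.5% and 20.3%).

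Transcripts of dividing cells were concentrated in subcluster 1. Its leading genes were the histone genes Hist1h1b, Hist1h2ap and Hist1h2ae and the mitotic genes Kif15, Prc1, Kif4, Pclaf and Racgap1. Mki67, a marker of proliferating cells, stood at 396 and 316 CPM there, at 6.94 and 5.92 CPM in subcluster 2 and at 30.6 and 4.52 CPM in subcluster 3. Cell cycle genes of the fixed list did not serve for clustering, but other genes of dividing cells, such as these leading genes, were not left out. With 5 CPM added to both, 87 of the list's 92 genes were at least 2-fold higher in subcluster 1 than in the other members. That count is therefore no independent check of the subcluster. Gdnf at 130 CPM, Aldh1a2 at 188 CPM and Igfbp5 at 761 CPM over both libraries were also above the 18.2, 38.3 and 51.1 CPM of the other members. The tubule-bearing barcode lay in this subcluster, where the Lrp2 levels of the libraries were 225 and 8.55 CPM.

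Subcluster 2 was led by several matrix genes. Its leading genes were Dcn, Kcnk2, Postn, Mfap5, Thbs2, Cryab, Epha3 and Lamc3. Dcn stood at 1531 and 878 CPM there and at 39.3 to 149 CPM in the other subclusters of both libraries. Col14a1 stood at 1339 and 1221 CPM there, at 120 and 314 CPM in subcluster 1 and at 358 and 777 CPM in subcluster 3. Hhip stood at 143 and 138 CPM in subcluster 2, 24.0 and 2.85 CPM in subcluster 1 and 3.06 and 45.2 CPM in subcluster 3, and Ptch1 at 289 and 550 CPM, 103 and 79.8 CPM and 27.6 and 117 CPM. Dcn, Col14a1, Hhip and Ptch1 were thus all highest in subcluster 2 in both libraries.

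Agtr1a stood at 217 and 302 CPM in subcluster 2, at 150 and 176 CPM in subcluster 3 and at 83.1 and 39.9 CPM in subcluster 1. Its level was above the Foxd1-positive level of the same library in all 3 subclusters. The Penk-positive levels were 22.5 and 49.3 CPM. Subcluster 1 of replicate 2, at 39.9 CPM, lay below the Penk-positive level of its library, and the other values lay above theirs. Acta2 differed more between libraries than between subclusters 2 and 3, at 546 and 2113 CPM in subcluster 2 and 637 and 1310 CPM in subcluster 3.

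Subcluster 3 was led by Dkk2, a secreted Wnt modulator, with Gm15478, Slco1a4, Gprin3, Asb4, Cntn4, Lsamp and Acer3. Dkk2 stood at 187 and 393 CPM there, at 85.2 and 59.9 CPM in subcluster 1 and at 9.25 and 21.7 CPM in subcluster 2. The 87 Dkk2 UMIs of subcluster 3 in replicate 2 came from 18.8% of its 16 cells, against 20% of cells with a Dkk2 UMI in subcluster 1, so few cells carried that level. Cntn4 stood at 358 and 366 CPM there, at 208 and 131 CPM in subcluster 1 and at 64.8 and 43.4 CPM in subcluster 2. Megf11 stood at 70.4 and 181 CPM in subcluster 3, at 143 and 74.97 CPM in subcluster 2 and at 15.3 and 25.7 CPM in subcluster 1, so its order between subclusters 2 and 3 differed between the libraries.

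**Figure D4:**
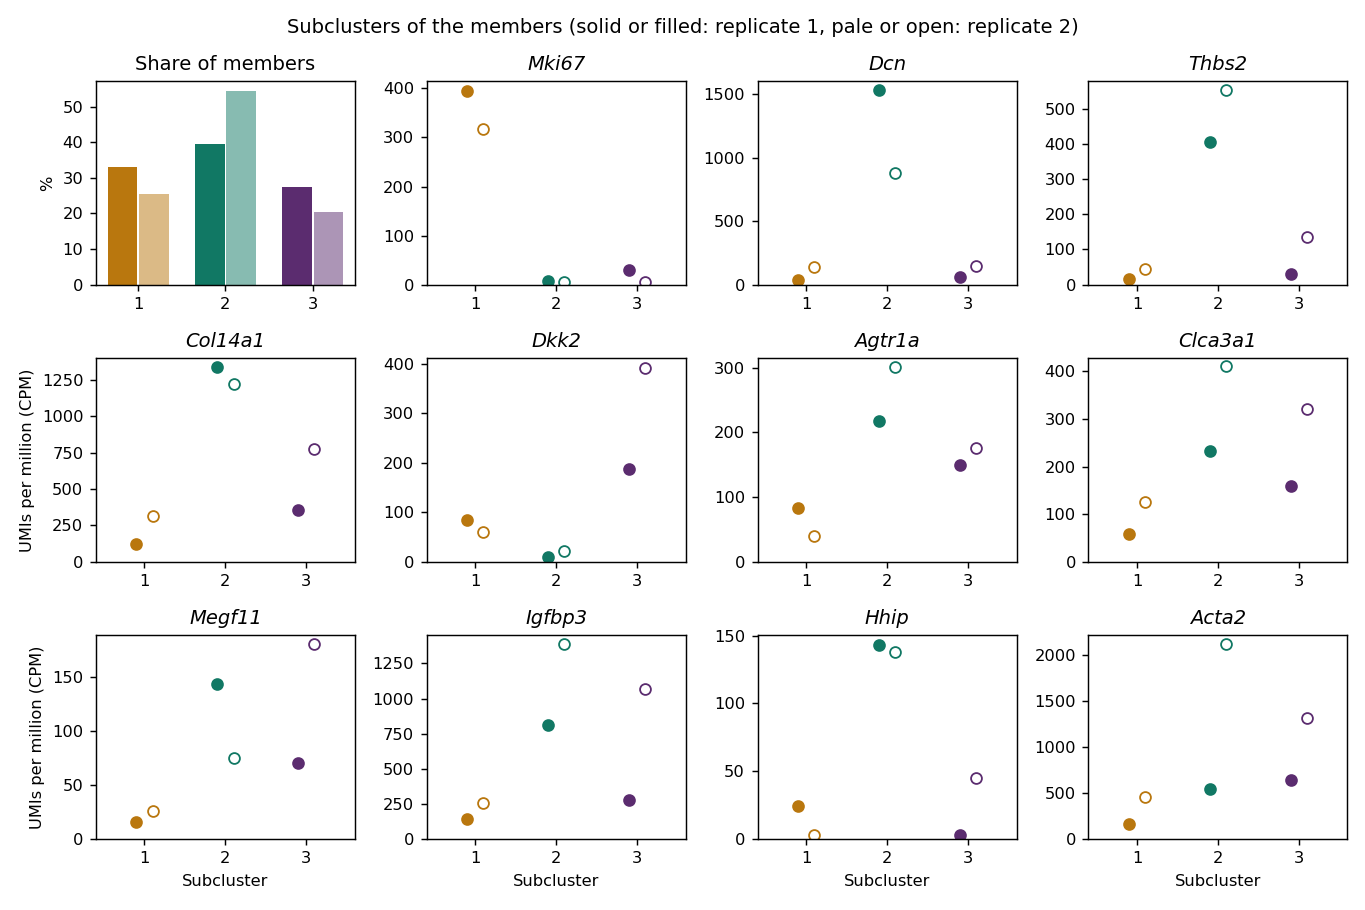
Share of members (%, bars) and levels of 11 genes (CPM, points) in the 3 subclusters of Foxd1/Penk-negative stroma; solid bars and filled points are replicate 1, pale bars and open points replicate 2, and every axis starts at 0. Mki67 is high in subcluster 1, and Dcn, Thbs2, Col14a1 and Hhip in subcluster 2, in both libraries, while the Dkk2 level of subcluster 3 in replicate 2 came from 18.8% of its 16 cells.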

How the data were processed

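The 2 libraries were made on the Chromium system with sequencing of 3' cDNA ends, per the labels' protocols. The deposited values are raw UMI counts per gene and barcode for all barcodes, written by Cell Ranger 4 per the file headers, while the submitters' processing notes name Cell Ranger 6.0.1 and the build mm10. Counting options and strand settings are not given in the sources used here. Coordinates are those of GENCODE M21 (GRCm38), matched by Ensembl identifier. The libraries held 200331687 and 173166168 UMIs, and counts were not corrected for free RNA.

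The members and the 30 gene lists were chosen with earlier results of these data known. Counts were summed per library and cell set, since cells are not replicates, and edgeR 4.0.16, run under R 4.3.3 with limma 3.58.1, fitted the 8 sums of 4 sets in 2 libraries together: TMM scaling, filterByExpr, the set and the library as a block, 3 residual degrees of freedom, two-sided quasi-likelihood F tests, Benjamini-Hochberg adjustment over all tested genes and a threshold of 0.05. The block was used because the 4 sets of a library come from the same library. The standard error of a log2 difference is the difference divided by the square root of F. CPM are plain counts per 1000000 UMIs of a sum. The block takes out level differences between the 2 libraries. P-values therefore weigh a difference against how far differences between the 4 sets varied from library to library, a variation that may be technical. The estimate of that variation for a gene also drew on the other genes. The test was tried on simulated data first.

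Named genes were, for each comparison, the 10 largest increases and 10 largest decreases among genes past the threshold with a mean of at least 20 CPM and the same sign in both libraries, leaving out mitochondrial, ribosomal, haemoglobin, Y-linked and unnamed genes. The 15 most abundant genes, the 10 leading genes, genes of the lists and 8 leading genes per subcluster were also eligible. Values of Agtr1a, Prkg1, Megf11 and Epas1 in further comparisons, and of Rbpj, were chosen after they were seen. A few genes that the rule names are not reported here. Subclusters came from scanpy 1.11.5 (2000 variable genes centred per library, 30 components, 15 neighbours, Leiden resolution 0.5). Doublets were the highest 0.8% of Scrublet scores per 1000 cells and stayed in the main sets. Genes that define other lineages included Six2, Lhx1, Slc34a1, Umod, Aqp2, Cdh5, C1qa and Sox10. Alternatives were DESeq2 1.42.0, no filter on low counts, no block, only the 2 sets compared, cells thinned to 3000 UMIs, at least 5000 UMIs, 5000 to 20000 UMIs, at most 10% mitochondrial UMIs, at least 5 Col3a1 UMIs, and sets without doublets or without other-lineage cells. Stricter comparison sets (at least 2 Foxd1, 2 Penk or 3 Myh11 and Kcnj8 UMIs) were added after seeing the data.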

Additional observations from a re-analysis of the deposited data

How the results depend on the processing

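The 3 comparisons gave counts within 1.5 times of the reported ones at 5000 UMIs, at 10% mitochondrial UMIs, at 5 Col3a1 UMIs and without doublets or other-lineage cells. Without a replicate block the genes higher and lower were 130 and 55 against Foxd1-positive stroma, 79 and 63 against Penk-positive stroma and 48 and 121 against mural cells. With DESeq2 they were 246 and 127, 139 and 96, and 160 and 168. In cells thinned to 3000 UMIs, which hold fewer counts, they were 204 and 115, 147 higher against Penk-positive stroma, and 125 and 143. Without a filter on low counts, which lets more genes in, they were 702 and 698, 461 and 385, and 479 and 745. Against mural cells alone, the fit of only the 2 sets gave 440 and 545, the stricter set gave 495 and 524, and cells of 5000 to 20000 UMIs gave 130 higher. The cause of these shifts was not tested.

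The members' share was 1.84% at 5000 UMIs, 2.09% at 10% mitochondrial UMIs, 1.80% at 5 Col3a1 UMIs, 1.38% at 2 Pdgfra UMIs and 2.67% when the rule was applied after thinning. Leaving out 1 library gave 1.88 to 1.97%. Of the 324 called differences of named and list genes, 101 stayed past the threshold in all 12 alternatives that could test them, 205 missed it without the block, 115 after thinning and 93 with DESeq2. The sign turned for Slc34a1 (-0.13) without other-lineage cells and for Ltbp1 (0.056) after thinning, both against Foxd1-positive stroma. When 1 library was left out, the range against mural cells was -1.40 to 4.30 for Dpt, -0.53 to 0.16 for Bst2, -0.34 to 0.13 for Epas1 and -0.0070 to 0.99 for Nrp2. Leaving out a library gives a value within the other library and no test, because no residual degrees of freedom remain. With 2 libraries, low genes such as Bmper rest on a few UMIs, and a missing Foxd1 or Penk UMI in a shallow cell limits what "negative" means.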
